A study of Saccharomyces cerevisiae with 12 samples.

Results

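The response of budding yeast to 30 min at 43°C was described from the 3 arrays labelled with this temperature and time, experiments 1 to 3, out of 6 arrays in all. The other 3 arrays hold cells kept at 43°C for 60 min and were used only for the spread between arrays and for a comparison of both times. Each array compared heat-shocked *S. cerevisiae* JN54 with control cells of the same strain kept at 30°C. The strain is a haploid of mating type a that is wild-type for the chaperone genes of the study but carries auxotrophic alleles at *HIS3*, *LEU2*, *URA3*, *TRP1* and *LYS2*, in both the heat-shocked and the control cells. Cells were grown in YPD, a rich medium, and poly(A) RNA was labelled with Cy5 for the heat-shocked cells and with Cy3 for the control cells. The dyes were not exchanged in any array as far as the methods say, and a bias of a gene towards Cy5 or Cy3 cannot be told apart from the heat shock. The experiments are called independent, and since nothing states that they came from separate cultures, the p-values measure only the spread between these arrays, which may be technical.

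When temperature rises, proteins unfold, and yeast responds within minutes. The factor Hsf1 turns on genes of chaperones, proteins that keep others from aggregating or help them refold, and Msn2 and Msn4 turn on a broad set of stress genes for small heat-shock proteins, antioxidants and storage carbohydrates. At the same time cells cut back the genes of ribosomes and protein synthesis, which take up much of the transcription of a growing cell. RNA was compared here per unit of labelled RNA, and less RNA per cell or fewer cells cannot be told apart from it.

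Values are log2 ratios of heat-shocked over control cells, so that 1 stands for a 2-fold higher and -1 for a 2-fold lower level after heat shock. The base of the logarithm is not stated by the authors and was read as 2. The 3 arrays held between 6018 and 6019 features after repeated spots were merged, of which 5376 carry a gene name. What the features without a gene name represent was not examined. Their medians lay between -0.01 and 0.00, and their median absolute deviations were 0.56, 0.51 and 0.38 in experiments 1, 2 and 3. Experiment 3 thus had the narrowest ratios, and 2480 of its features had a value that another feature shared, against 341 and 162 in experiments 1 and 2. Across genes, which are not independent replicates, the arrays of experiments 1 and 2 had a correlation of 0.853, those of 1 and 3 of 0.773 and those of 2 and 3 of 0.819.

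Of the 6019 features, 647 rose (10.7%) and 960 fell (15.9%) at an adjusted p below 0.05 (limma, both times sharing the spread, Benjamini-Hochberg over all features). All 1607 of them had the same sign in all 3 experiments, as did 4155 of the 6019 features (69.0%). Falls were both more frequent and larger: 130 of the features that fell but 26 of those that rose had a mean change over 4-fold, and 11 and 5 were over 8-fold. Where 2 or more of the 3 experiments had to show a ratio above 2, or below 0.5, 266 features were up (4.42%) and 613 down (10.2%), and in all 3 experiments 109 were up and 346 down. The number called depended on every array. Without experiment 1, 2 or 3 of 30 min, 158, 132 and 327 features rose and 441, 417 and 658 fell, and 107 and 355 kept their call in each of these fits. Without experiment 1 of 60 min, which enters the spread, 1013 rose and 1244 fell. With the 3 arrays of 30 min fitted alone, 1278 rose (21.2%) and 1443 fell (24.0%), among them all 647 and 960. Where a call named here was lost without an array of 30 min, this is said beside it. Both times share the spread, so such a loss alone does not show that the experiments of 30 min disagree.

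**Figure D1:**
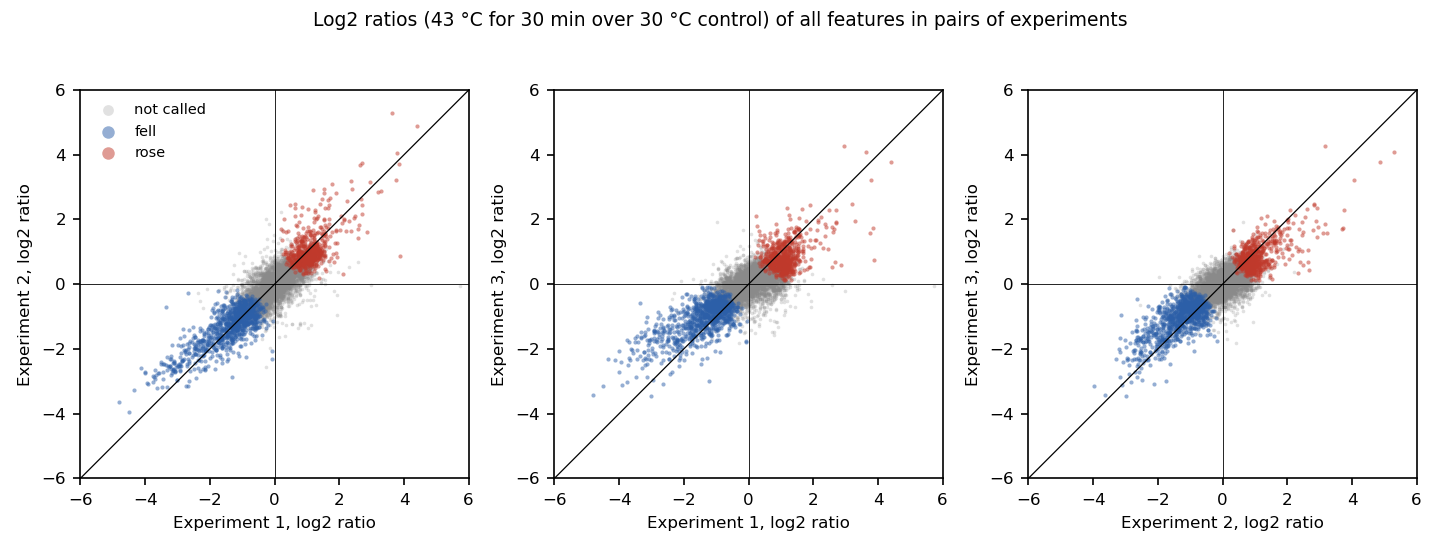
Log2 ratio of heat-shocked over control cells after 30 min at 43°C for every feature in experiment 2 (left), experiment 3 (middle) and experiment 3 (right) on the vertical axis against experiment 1, 1 and 2 on the horizontal axis, with features that rose in red, features that fell in blue and all others in grey, and the diagonal as a line. The correlations across genes are 0.853, 0.773 and 0.819, and of 1453 named genes called, 1041 and 1007 were nearer to 0 in experiment 3 than in experiments 1 and 2.

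The gene with the highest mean ratio was *HSP12*, which encodes a small membrane-associated stress protein. Its log2 ratios were 4.40, 4.88 and 3.79 in experiments 1, 2 and 3, a mean of 4.36 ± 0.55 (SD, n = 3, adjusted p = 3.13e-05), or 20.5-fold. *SSA4*, the heat-inducible Hsp70 of the cytosol, followed with 3.62, 5.30 and 4.10 and a mean of 4.34 ± 0.87 (SD, n = 3, adjusted p = 4.26e-05), or 20.3-fold. These genes do not differ beyond their spread, since *HSP12* was the higher in experiment 1 and *SSA4* in experiments 2 and 3. *DDR2*, a multistress gene of unknown function, had ratios of 2.96, 3.16 and 4.28, the only gene among the 12 highest that was highest in experiment 3. The small heat-shock protein *HSP26* had 3.84, 3.72 and 1.74, with experiment 3 the lowest, and a mean of 3.10 ± 1.18 (SD, n = 3, adjusted p = 0.00384).

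The other 8 of the 12 highest named genes came from quite different functions. *ALD3*, a cytosolic aldehyde dehydrogenase, had a mean of 2.91, *PHO84*, the high-affinity phosphate transporter, 2.85, and *PIR3*, a covalently bound cell wall protein, 2.83. *SSA3*, the other heat-inducible Hsp70, had 2.71 and *HSP30*, a membrane protein that dampens the plasma membrane proton pump, 2.68. *NQM1*, a transaldolase paralog, had 2.47, *GRE3*, an aldose reductase, 2.39 and *EGO4*, a small protein, 2.36. Their adjusted p-values ranged between 4.26e-05 (*PIR3*) and 0.00287 (*HSP30*). All 12 kept their call whichever array of 30 min was left out. *PIR3* was the steadiest of the 8 (3.19, 2.84 and 2.47 in experiments 1, 2 and 3), while *PHO84* (3.74, 3.23 and 1.59) varied most.

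Among the 12 lowest named genes, 9 encode proteins of the cytosolic ribosome, and the remaining 3 are *SRL1*, *LEU1* and *STE2*. *RPS2*, a protein of the small subunit, had log2 ratios of -4.81, -3.64 and -3.42, a mean of -3.96 ± 0.75 (SD, n = 3, adjusted p = 3.13e-05), which is a ratio of 0.0645. *ASC1*, a scaffold protein on the small subunit, had -4.50, -3.96 and -3.14. *RPL4B*, *RPS7A* and *RPL4A* followed with means of -3.37, -3.31 and -3.21, then *RPP0*, *RPL2B*, *RPS20* and *RPL1A* with -3.14, -3.03, -3.02 and -2.97. In experiment 1 every one of these 9 genes had its lowest ratio. The call of *RPP0* (adjusted p = 0.0128) was lost without experiment 1 or 2 (adjusted p = 0.0997 and 0.0585), and the other 11 kept theirs. The SD of *RPP0* was 0.73 at 30 min but 2.88 at 60 min, which enters the spread. With 30 min fitted alone by limma, *RPP0* had an adjusted p of 2.79e-05. *SRL1*, which encodes a mannoprotein of the wall, had -3.48, -3.17 and -2.88. *LEU1*, an enzyme of leucine synthesis, had -3.03, -2.97 and -3.47 and was the only one of the 12 to be lowest in experiment 3. *STE2*, the receptor for the alpha-factor pheromone, had -3.94, -3.07 and -2.40.

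**Figure D2:**
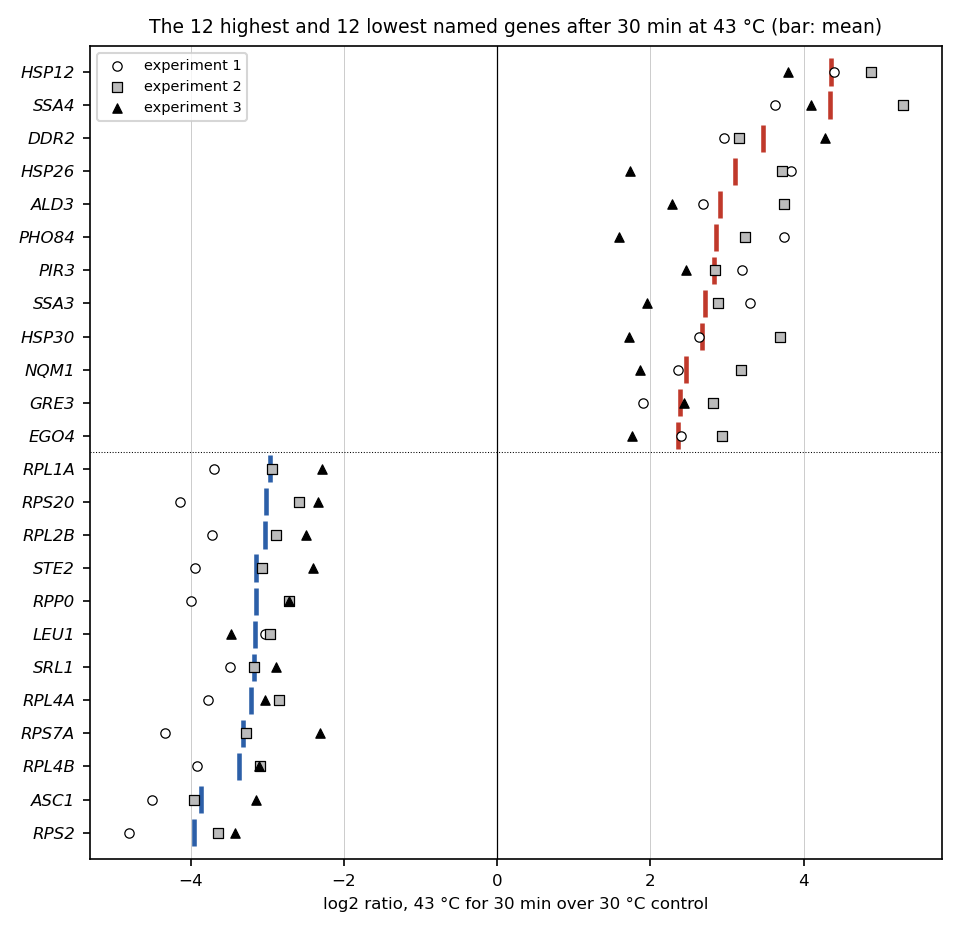
Log2 ratio of heat-shocked over control cells after 30 min at 43°C (horizontal axis) for the 12 named genes with the highest and the 12 with the lowest mean among those that passed the test, with a symbol for each of the 3 experiments and a bar at their mean. No symbol crosses 0, since the genes shown were chosen with 1 sign in all 3 experiments. Experiment 1 holds the lowest ratio of every ribosomal gene shown.

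Chaperones of the cytosol did not move as a block. Of 7 Hsp70 and Hsp110 genes measured, 3 rose and 2 fell. The inducible forms *SSA4* and *SSA3* rose, and so did *SSE2*, the stress-induced Hsp110 (0.64, 2.35 and 1.10, adjusted p = 0.0235), whose call was lost without experiment 2 or 3 (adjusted p = 0.225 and 0.0611). With experiment 1, 2 or 3 left out, 3, 2 and 2 genes rose and 2 each time fell. *SSA2*, the constitutive Hsp70 that is nearly identical to *SSA1*, had -0.37, 0.68 and 0.45 (mean 0.25, adjusted p = 0.489). *SSA1* was not measured on its own, and the *SSA2* value may include RNA of both genes. Hsp70 genes of the ribosome fell: *SSB2*, which binds new chains as they leave the ribosome, had -2.84, -1.87 and -1.78 (mean -2.16, adjusted p = 0.000265), and *SSZ1*, its partner there, had -2.15, -2.56 and -2.08 (mean -2.26, adjusted p = 0.0001). *ZUO1*, the J-protein that works with *SSZ1*, fell too (-1.89, -1.84 and -1.22, mean -1.65, adjusted p = 0.00331). The inducible forms thus rose and the 3 genes of the ribosome-bound system fell. Every called feature had 1 sign in all 3 experiments, so the separation of these genes adds nothing to their calls.

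Hsp90 and its helpers leaned upward: 6 of 14 rose and 2 fell, with a list median of 0.67 against -0.01 over all features. *HSP82*, the inducible Hsp90, had 1.25, 2.23 and 2.14 (mean 1.87, adjusted p = 0.000566) and *CPR6*, a prolyl isomerase bound to Hsp90, had 1.54, 2.00 and 1.74 (mean 1.76, adjusted p = 0.00296). When experiment 1, 2 or 3 was omitted, the counts that rose were 3, 2 and 2 and those that fell 1, 0 and 0. *HSP82* and *CPR6* kept their calls, while *STI1*, which bridges Hsp70 and Hsp90, had 0.81, 1.21 and 1.57 and lost its call without experiment 2 or 3 (adjusted p = 0.0842 and 0.0826). *HSC82*, the constitutive Hsp90, had 0.19, 0.93 and 1.36 and did not pass (mean 0.83, adjusted p = 0.0551). Its difference from *HSP82* was not tested, and cross-hybridization between these genes was not examined.

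The list of small heat-shock proteins and the disaggregase, which also holds *HSP30* and *HSP31*, had the highest median of the 58 lists compared (1.80). Of its 8 members 6 rose (5, 4 and 6 without experiment 1, 2 or 3). Beside *HSP12*, *HSP26* and *HSP30*, *HSP31*, a glyoxalase-like protein, rose with nearly equal ratios (2.15, 1.99 and 1.97, mean 2.04 ± 0.09, SD, n = 3, adjusted p = 0.000191). *HSP104*, which pulls proteins out of aggregates together with Hsp70, had 1.26, 2.28 and 1.15 (mean 1.57, adjusted p = 0.0120), a call that was lost without experiment 2 (adjusted p = 0.124). *HSP42*, a small heat-shock protein of the cytosol, was the exception with -1.05, -0.03 and -1.08 (mean -0.72, adjusted p = 0.247).

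Of 14 J-proteins and nucleotide exchange factors, which set the pace of Hsp70, none rose by limma (at an unadjusted p under 0.05, 0 rose) and 6 fell, among them *ZUO1*. *APJ1*, a J-protein, was among the 6 called genes with the widest range (-2.67, -0.27 and -1.61, adjusted p = 0.0125), and the call was lost without experiment 1 or 3 (adjusted p = 0.129 and 0.0592). TRiC, the ring-shaped chaperonin that folds actin and tubulin, had 8 measured subunits, of which 5 fell and 7 lay below 0 in all 3 experiments. Its median was -0.75, with -0.43, -0.98 and -0.67 in experiments 1, 2 and 3. In fits without experiment 1, 2 or 3, 1, 0 and 0 subunits fell, and 1, 2 and 2 of the J-proteins and exchange factors. The largest was *CCT7* (mean -0.93, adjusted p = 0.0281, and 0.264 and 0.0851 without experiment 2 and 3).

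**Figure D3:**
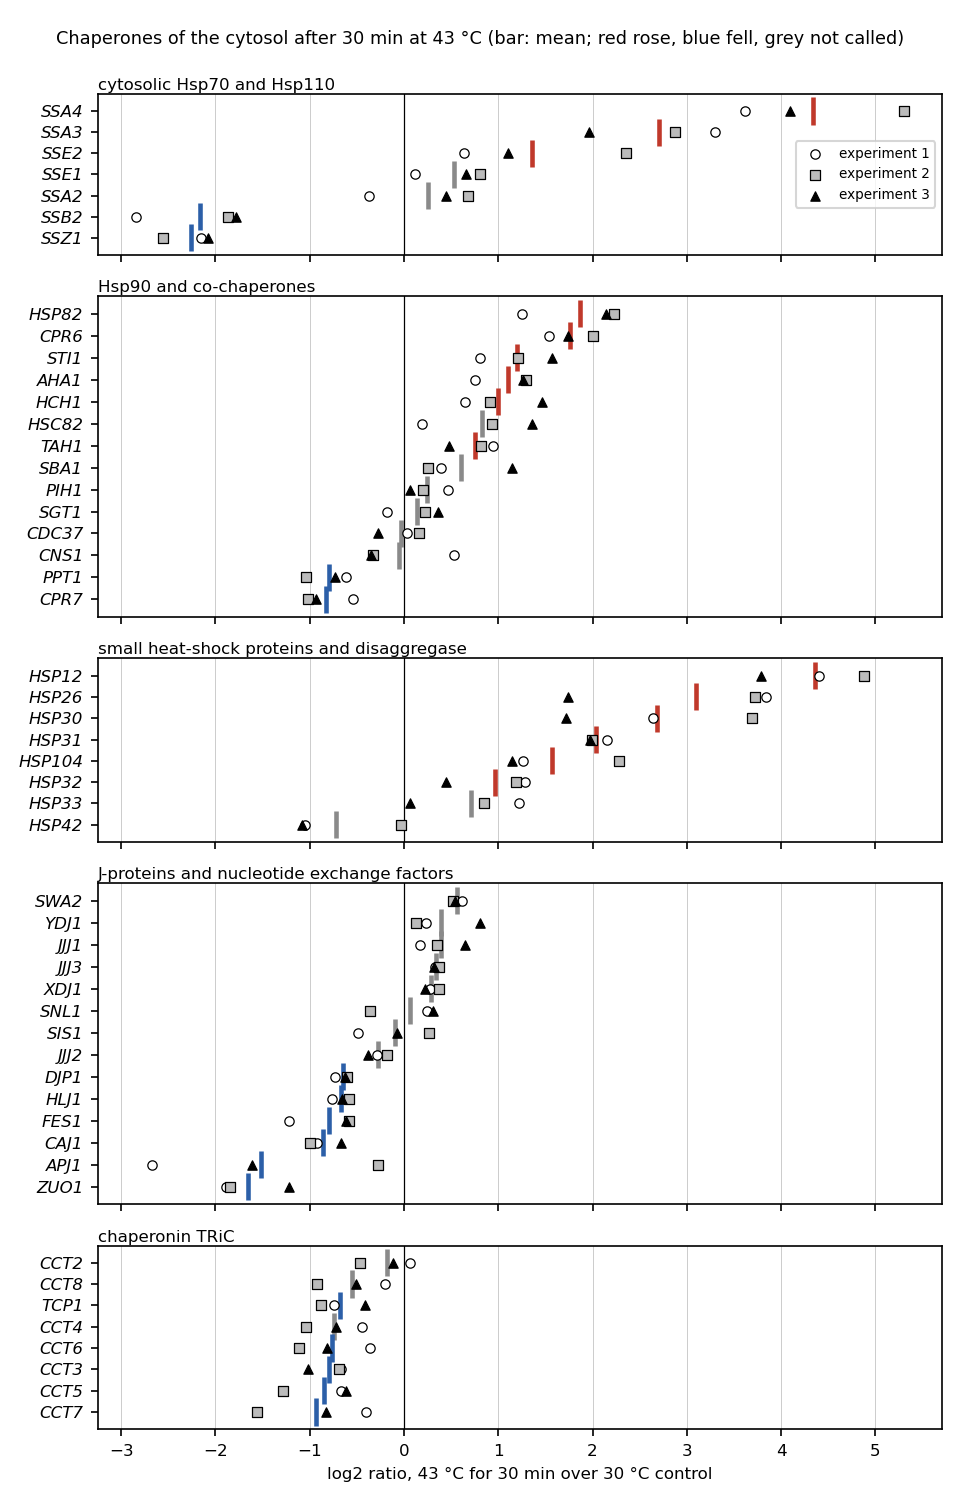
Log2 ratio of heat-shocked over control cells after 30 min at 43°C (horizontal axis) for every measured member of 5 chaperone lists of the cytosol, with a symbol for each of the 3 experiments and a bar at their mean, red where the gene rose, blue where it fell and grey otherwise. *SSA4* and *HSP12* reach 4.34 and 4.36 on average while *SSB2* and *SSZ1* lie at -2.16 and -2.26, and most subunits of TRiC lie below 0.

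In mitochondria, 3 of 17 chaperones and proteases rose (17.6%, against 10.7% of all features) and 1 fell (5.88%, against 15.9%). The counts that rose were 2, 0 and 1 without experiment 1, 2 or 3. *HSP60* and *HSP10*, which form the folding chamber of the matrix, had 0.36, 1.60 and 1.52 and 0.67, 1.30 and 1.59, with experiment 1 the lowest for both. Their means were 1.16 and 1.19 (adjusted p = 0.00922 and 0.00412). The call of *HSP60* was lost without experiment 2 or 3 (adjusted p = 0.111 and 0.0691) and that of *HSP10* without experiment 2 (adjusted p = 0.0514). *HSP78*, the disaggregase of the matrix, had 0.42, 1.63 and 0.68 (mean 0.91, adjusted p = 0.0339, and 0.0611, 0.307 and 0.0769 without experiment 1, 2 and 3). *MGE1*, the nucleotide exchange factor of the matrix Hsp70, fell (-1.30, -1.42 and -0.57, mean -1.10, adjusted p = 0.00601, and 0.0677 and 0.0831 without experiment 1 and 2). *SSC1*, that Hsp70 itself, had a mean of -0.56 (adjusted p = 0.0906).

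In the endoplasmic reticulum, 3 of 17 chaperones and genes of the unfolded protein response rose (17.6%, against 10.7% of all features). None fell by limma (0 at an unadjusted p under 0.05). *KAR2*, the Hsp70 of this compartment, had 1.55, 1.59 and 1.28 (mean 1.47 ± 0.17, SD, n = 3, adjusted p = 0.000587) and kept its call whichever experiment was left out. Its exchange factor *SIL1* (mean 1.12, adjusted p = 0.0134) and the oxidase *ERO1* (mean 1.05, adjusted p = 0.0299) rose as well, but both calls were lost without experiment 1 (adjusted p = 0.153 and 0.179) or 2 (adjusted p = 0.0699 and 0.190). After experiment 1, 2 or 3 was dropped, 1, 1 and 3 of these genes rose. *PDI1*, the disulfide isomerase that *ERO1* oxidizes, had 0.42, 0.10 and 0.03 (mean 0.18, adjusted p = 0.539). Of 15 genes that send misfolded proteins of this compartment to degradation, 2 rose (13.3%), near the 10.7% of all features. They were *DER1* (1.46, 1.02 and 0.74, adjusted p = 0.00907) and the ubiquitin ligase *HRD1* (mean 0.83, adjusted p = 0.0439, and 0.31 with an adjusted p of 0.23 after the median of each print block was subtracted). *HRD1* lost its call whichever experiment was left out (adjusted p = 0.172, 0.191 and 0.133 without experiment 1, 2 and 3), while *DER1* had an adjusted p of 0.102, 0.0675 and 0.0251. The ratios of *HRD1* were 0.81, 0.85 and 0.83, with an SD of 0.02 at 30 min and 0.78 at 60 min. With 30 min fitted alone by limma, *HRD1* had an adjusted p of 0.00278. Without experiment 1, 2 or 3, 0, 0 and 2 of the list rose, the last of them *DER1* and *NPL4*, a cofactor of the Cdc48 segregase (1.97, 0.39 and 0.30, adjusted p = 0.0504, and 0.0496 without experiment 3).

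Of 37 proteasome genes, 2 rose (5.41%, against 10.7% of all features) and none fell by limma (0 at an unadjusted p under 0.05). Those that rose were the lid subunit *RPN12* (1.23, 1.17 and 1.46, mean 1.28, adjusted p = 0.00422) and the assembly factor *UMP1* (0.89, 0.95 and 1.27, adjusted p = 0.00646, and 0.0530 and 0.0552 without experiment 2 and 3). The median of the list was 0.17, and 2, 1 and 1 rose without experiment 1, 2 or 3. *RPN4*, the transcription factor of the proteasome genes, had a mean of 0.12 (adjusted p = 0.726), and the core subunits *PRE1* and *SCL1* had 0.67 and 0.39 (adjusted p = 0.128 and 0.280). Of 29 genes of the ubiquitin system, 5 rose (17.2%) and 2 fell (6.90%), and without experiment 1, 2 or 3, 2, 1 and 4 rose and 1 each time fell. *UBC5*, a conjugating enzyme for abnormal proteins, had 1.39, 1.78 and 1.64 (mean 1.60, adjusted p = 0.000408). Its near-identical paralog *UBC4* had 0.62, 0.74 and 1.01 (mean 0.79, adjusted p = 0.0663, and 0.00453 with 30 min fitted alone). The difference between these paralogs was not tested, and spots of such similar genes may not tell them apart. *UBI4*, the polyubiquitin gene, had 0.64, 2.10 and 1.36 (adjusted p = 0.00435, and 0.0664 without experiment 2). *UBP9*, which the paper names as up in the heat-shocked wild-type, had 0.33, 0.71 and 0.55 and did not pass (mean 0.53, adjusted p = 0.0894). *RSP5*, a ubiquitin ligase, fell in all 3 experiments (-1.86, -1.32 and -0.91, mean -1.36, adjusted p = 0.00275).

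More genes rose than fell in the lists of autophagy and of vacuolar hydrolases and their inhibitors. Of 21 autophagy genes 5 rose (23.8%, against 10.7% of all features) and 1 fell, with a median of 0.20. Of 12 vacuolar hydrolases and their inhibitors 4 rose (33.3%) and none fell by limma (1 at an unadjusted p under 0.05). *ATG1*, the kinase that starts autophagy, had 1.42, 1.58 and 1.60 (mean 1.53, adjusted p = 0.00121), and *ATG8*, the ubiquitin-like protein of the growing membrane, had 1.46, 1.54 and 1.48 (mean 1.49 ± 0.04, SD, n = 3, adjusted p = 0.00273). These ratios were nearly the same in every experiment. *ATG17*, a scaffold protein of the start site, had 1.42, 0.67 and 0.82 (adjusted p = 0.0459), a call lost whichever experiment was left out (adjusted p = 0.277, 0.124 and 0.108). The inhibitors *TFS1* of carboxypeptidase Y and *PAI3* of proteinase A rose (means 1.67 and 1.36, adjusted p = 0.00124 and 0.00129). Among the hydrolases *APE1* had the highest mean (1.35, adjusted p = 0.0126, and 0.0642 and 0.140 without experiment 1 and 2). With experiment 1, 2 or 3 left out, 2 autophagy genes each time and 3, 2 and 3 vacuolar genes rose.

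Of 28 general stress genes 16 rose, none fell (1 at an unadjusted p under 0.05), and 22 lay above 0 in all 3 experiments. The list median was 1.17, with 1.04, 1.68 and 0.60 in experiments 1, 2 and 3. When experiment 1, 2 or 3 was omitted, 11, 11 and 15 rose. Beside *HSP12*, *DDR2*, *ALD3* and *GRE3*, the wall glycoprotein *YGP1* had 1.65, 2.60 and 2.31 (mean 2.19, adjusted p = 0.000673) and *SPI1*, an anchored wall protein, had 1.77, 3.10 and 1.59 (mean 2.15, adjusted p = 0.00129). *CYC7*, the cytochrome c isoform of low oxygen and stress, had a mean of 1.85 (adjusted p = 0.00144). *RTN2*, a reticulon of the endoplasmic reticulum, had 1.71, 2.66 and 0.44 and was among the 6 called genes with the widest range (adjusted p = 0.00994, and 0.0706 and 0.116 without experiment 1 and 2). Of the 17 transcription factors of stress listed, 2 rose and 2 fell (11.8% each), near the 10.7% and 15.9% of all features. These counts were 0, 0 and 1 and 0, 2 and 1 without experiment 1, 2 or 3. *MSN4* had a mean of 0.85 (adjusted p = 0.0372, and 0.0773, 0.160 and 0.207 without experiment 1, 2 and 3) and *USV1*, a zinc finger factor, 0.94 (adjusted p = 0.00711, and 0.0652 and 0.0842 without experiment 1 and 2). *SKN7*, a regulator of oxidative stress genes, fell with a mean of -1.01 (adjusted p = 0.00550, and 0.0532 without experiment 1), and *HSF1* had 0.39, 0.31 and 0.52 (adjusted p = 0.254).

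Antioxidant genes split, with 6 of 29 up (20.7%, against 10.7% of all features) and 6 down (20.7%, against 15.9%). *GRX1*, a cytosolic glutaredoxin, had a mean of 1.38 (adjusted p = 0.00616, and 0.0556 and 0.0594 without experiment 1 and 2), while *PRX1* and *TRX3*, the peroxiredoxin and thioredoxin of mitochondria, had 1.33 and 1.02 (adjusted p = 0.00206 and 0.00344). *CTT1*, the cytosolic catalase, had 1.03, 2.33 and 0.35 (mean 1.24, adjusted p = 0.0376, and 0.121 and 0.318 without experiment 1 and 2). *TRX1*, the thioredoxin of the cytosol, fell (-1.27, -1.70 and -0.96, mean -1.31, adjusted p = 0.00219). *GSH1* and *GSH2*, which make glutathione in succession, fell, the first with -1.10, -0.90 and -0.99 (adjusted p = 0.0151) and the second with a mean of -1.23 (adjusted p = 0.00730). In fits without experiment 1, 2 or 3, 2, 2 and 5 members rose and 1, 1 and 3 fell. *GSH1* lost its call in each of these fits and *GSH2* without experiment 1 or 2.

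Of 9 genes of trehalose, a disaccharide that protects proteins and membranes, 3 rose (33.3%, against 10.7% of all features) and 2 fell (22.2%, against 15.9%). Of 16 genes of glycogen 4 rose (25%). After experiment 1, 2 or 3 was dropped, 2, 0 and 2 of the trehalose genes and 1, 2 and 4 of the glycogen genes rose, and 0 of the trehalose genes fell. *TSL1*, a regulatory subunit of trehalose synthase, had 1.48, 2.64 and 1.06 (adjusted p = 0.0108, and 0.120 without experiment 2). *TPS3*, the other regulatory subunit of this complex, fell (-1.14, -0.70 and -0.35, mean -0.73, adjusted p = 0.0376), as did *UGP1*, which makes the UDP-glucose it uses (-1.07, -0.43 and -0.66, mean -0.72, adjusted p = 0.0476), and both calls were lost whichever experiment was left out. On the side of breakdown, the trehalases *NTH1* and *ATH1* had means of 1.09 and 0.96 (adjusted p = 0.00711 and 0.00917). The catalytic subunits *TPS1* and *TPS2* had means of 0.42 and -0.76 (adjusted p = 0.214 and 0.0582). Genes of synthesis thus passed in both directions and those of breakdown upward, but each of these calls was lost in at least 1 fit with an experiment left out. *NTH1* lost its call without experiment 1 or 2 (adjusted p = 0.0635 and 0.0950) and *ATH1* without 2 or 3 (adjusted p = 0.0825 and 0.0670). In glycogen metabolism, *GAC1*, which targets a phosphatase to glycogen synthase, had 1.90, 1.66 and 1.37 (adjusted p = 0.00548, and 0.0523 without experiment 1). *GPH1*, the phosphorylase that breaks glycogen down, had 0.62, 2.49 and 0.58 (adjusted p = 0.0216, and 0.213 without experiment 2).

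Of 29 genes of glycolysis and fermentation, 4 rose (13.8%) and 5 fell (17.2%), and the median was -0.04. Without experiment 1, 2 or 3, 3 each time rose and 1, 2 and 2 fell. *HXK1* and *GLK1*, the hexokinase and glucokinase used when glucose is scarce, had 1.18, 2.91 and 2.34 and 1.39, 2.48 and 1.61 (means 2.14 and 1.83, adjusted p = 0.00083 and 0.000514). *HXK2*, the hexokinase of cells growing on glucose, had -1.21, -1.12 and -1.01 (mean -1.12, adjusted p = 0.00224). *TDH1*, a glyceraldehyde-3-phosphate dehydrogenase isoform of stressed and resting cells, rose (mean 1.64 ± 0.12, SD, n = 3, adjusted p = 0.000982), and the major pyruvate decarboxylase *PDC1* fell (mean -1.07, adjusted p = 0.00477, and 0.0652 without experiment 1). Its isoform *PDC5* fell as well (-1.36, -0.52 and -0.52, mean -0.80, adjusted p = 0.0276), a call lost whichever experiment was left out (adjusted p = 0.265, 0.0885 and 0.0600).

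Hexose carriers and sensors had 9 of 18 members up and 1 down. *HXT11* and *HXT9*, nearly identical carriers that cross-hybridization cannot separate, had means of 1.60 and 1.28 (adjusted p = 0.000809 and 0.00123). *HXT6* and *HXT2*, high-affinity carriers, had 0.25, 1.65 and 1.81 and 0.30, 2.00 and 1.21, with experiment 1 near 0 for both. Their calls (adjusted p = 0.0180 and 0.0146) were lost without experiment 2 (adjusted p = 0.152 and 0.173) or 3 (adjusted p = 0.120 and 0.0655). *HXT7*, almost the same sequence as *HXT6*, had a mean of 0.93 (adjusted p = 0.0791). *HXT1*, the low-affinity carrier of high glucose, had -1.12, -0.56 and -0.55 (adjusted p = 0.0231), and its call was lost whichever experiment was left out. With experiment 1, 2 or 3 left out, 6, 2 and 5 members rose and 0 fell.

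Aldehyde dehydrogenases, like the enzymes that phosphorylate glucose, had members in both directions. *ALD3* (2.69, 3.75 and 2.28) and *ALD2* (1.67, 2.46 and 1.04, mean 1.73, adjusted p = 0.00191), neighbouring genes of stress-induced cytosolic enzymes with similar sequences, rose. *ALD6*, the main cytosolic enzyme that makes acetate during growth on glucose, fell (-2.31, -2.69 and -1.12, mean -2.04, adjusted p = 0.00661, and 0.0565 and 0.0744 without experiment 1 and 2). Over the list of aldehyde and aryl-alcohol dehydrogenases, 6 of 12 rose and 2 fell, against 3, 3 and 2 that rose and 0, 0 and 2 that fell without experiment 1, 2 or 3.

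Of 28 genes of the TCA and glyoxylate cycles, 9 fell (32.1%, against 15.9% of all features) and 3 rose (10.7%, the share of all features). *PDB1* and *PDA1*, the subunits of the E1 part of pyruvate dehydrogenase, had -2.03, -2.07 and -1.52 (mean -1.87, adjusted p = 0.000265) and -2.01, -1.25 and -0.82 (mean -1.36, adjusted p = 0.0061, and 0.0781 without experiment 1). *MLS1*, the malate synthase of the glyoxylate cycle, rose (mean 1.18, adjusted p = 0.00389). Of 34 respiratory chain and ATP synthase genes, 7 fell (20.6%) and 3 rose (8.82%), near the shares of all features. *ATP1* and *ATP2*, the alpha and beta subunits of the ATP synthase, had means of -1.87 and -1.37 (adjusted p = 0.000782 and 0.00285). *STF1*, which stabilizes the inhibited enzyme, had 1.47, 1.70 and 1.71 (mean 1.63, adjusted p = 0.000464). When experiment 1, 2 or 3 was omitted, 2, 3 and 6 genes of the cycles and 2, 2 and 5 of the chain fell. In peroxisomes and the oxidation of fatty acids 7 of 17 rose and none fell (2 at an unadjusted p under 0.05), led by *CAT2*, a carnitine acetyltransferase (0.94, 1.21 and 1.18, mean 1.11, adjusted p = 0.00270), but 1, 1 and 2 rose without experiment 1, 2 or 3.

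No member of 3 lists of lipid synthesis was called up by limma (at an unadjusted p under 0.05, 1 sphingolipid gene rose). Of 24 ergosterol genes 12 fell and 21 were below 0 in all 3 experiments, and the list median was -1.03, -0.84 and -0.82 in experiments 1, 2 and 3. *ERG13*, which makes HMG-CoA at the start of the pathway, had -2.46, -1.89 and -2.31 (mean -2.22, adjusted p = 0.000201). *ERG2* (mean -1.93, adjusted p = 0.00015), *ERG27* (mean -1.74, adjusted p = 0.000464) and *ERG4* (mean -1.49, adjusted p = 0.00117) act in the late part. The other 12 genes of the list did not pass, and 9, 11 and 11 fell without experiment 1, 2 or 3.

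Of 12 fatty acid genes 8 fell, with a median of -1.04. *ELO2* and *ELO3*, which extend very long chains for sphingolipids, had -3.29, -2.53 and -2.59 and -1.85, -1.99 and -1.70 (means -2.80 and -1.85, adjusted p = 7.49e-05 and 0.000197), and *FAS2*, a subunit of fatty acid synthase, had a mean of -1.87 (adjusted p = 0.000566). *IFA38*, the reductase of the elongation cycle, had a mean of -1.46 (adjusted p = 0.00112). Of 21 sphingolipid genes 7 fell, led by *LAG1*, a ceramide synthase subunit (-2.26, -1.79 and -1.12, mean -1.72, adjusted p = 0.00150), and *LCB2*, a subunit of serine palmitoyltransferase (mean -1.27, adjusted p = 0.00293). In fits without experiment 1, 2 or 3, 5, 6 and 8 fatty acid genes and 2, 2 and 3 sphingolipid genes fell.

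In amino acid synthesis the branched-chain pathway stood lowest. Of its 12 genes 7 fell, none rose (0 at an unadjusted p under 0.05), and the median was -1.38. After *LEU1*, *ILV3*, which makes the keto acids of isoleucine and valine, had -3.14, -2.61 and -2.47 (mean -2.74, adjusted p = 4.26e-05) and *BAT1*, the mitochondrial aminotransferase of the last step, had -2.96, -2.54 and -2.17 (mean -2.55, adjusted p = 9.59e-05). *LEU2* had a mean of -2.01 (adjusted p = 0.000208). The strain carries an auxotrophic allele at *LEU2*, in heat-shocked and control cells alike, and its part in this list was not tested. Of 49 genes for other amino acids 22 fell and 4 rose. *THR1* and *HOM2*, of the threonine branch, had means of -2.31 and -1.82 (adjusted p = 0.000204 and 0.000265), and *ARO4* and *ARO8*, of the aromatic branch, -2.03 and -1.63 (adjusted p = 0.00103 and 0.00061). *GLN1*, glutamine synthetase, went the other way (1.23, 1.91 and 1.70, mean 1.61, adjusted p = 0.000809). *SHM2*, the cytosolic serine hydroxymethyltransferase, had 2.85, 1.60 and 0.60 (adjusted p = 0.0351, and 0.268 and 0.138 without experiment 1 and 2). After experiment 1, 2 or 3 was dropped, 12, 9 and 14 genes of this list fell and 1, 1 and 3 rose.

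Of 26 genes of sulfur and methionine metabolism 6 fell (23.1%, against 15.9% of all features) and 5 rose (19.2%, against 10.7%). Those that fell were led by *SAM1* and *SAM2*, which make S-adenosylmethionine (means -2.22 and -2.02, adjusted p = 0.00121 and 0.00112), *SAH1*, which clears its by-product (mean -1.92, adjusted p = 0.000259), and *CYS4*, which takes homocysteine to cystathionine (mean -1.76, adjusted p = 0.000725). *SAM1* and *SAM2* share most of their sequence and cannot be fully told apart on cDNA probes. The 5 that rose were led by *MET8*, of the siroheme cofactor of sulfite reductase (1.24, 0.95 and 1.04, adjusted p = 0.00388), and the sulfate carrier *SUL1* (mean 0.88, adjusted p = 0.0130). *MET6*, which makes methionine from homocysteine, rose too (1.13, 0.87 and 0.61, mean 0.87, adjusted p = 0.0154, and 0.141 and 0.107 without experiment 1 and 2). Without experiment 1, 2 or 3, 1, 1 and 3 rose, with *MET8* called in each fit and *SUL1* in none, and 5, 6 and 6 fell.

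Of 20 amino acid permeases 5 rose (25%, against 10.7% of all features) and 3 fell (15%, against 15.9%). These counts were 1, 0 and 2 that rose and 3, 1 and 3 that fell without experiment 1, 2 or 3. The 3 that fell carry branched-chain and aromatic amino acids or glutamine: *BAP3* (mean -1.32, adjusted p = 0.000996), *TAT1* (mean -1.21, adjusted p = 0.00394, and 0.0638 without experiment 2) and *GNP1* (mean -1.03, adjusted p = 0.00703, lost without experiment 1 or 2). Nucleotide synthesis had 12 of 22 genes down and 4 up. *URA1*, which makes orotate, had -2.63, -2.13 and -3.10 (mean -2.62, adjusted p = 0.000204), *URA7*, CTP synthase, had a mean of -2.29 (adjusted p = 9.59e-05) and *APT1*, which salvages adenine, -2.03 (adjusted p = 0.000733). The 4 that rose all belong to the purine path to AMP: *ADE17* (2.45, 2.05 and 1.10, mean 1.87, adjusted p = 0.000742), *ADE2* (mean 0.95, adjusted p = 0.00895), *ADE12* (mean 0.85, adjusted p = 0.0306) and *ADE1* (mean 0.69, adjusted p = 0.0394). *ADE17* alone of the 4 kept its call without each experiment, and *ADE2* kept it only without experiment 2. With experiment 1, 2 or 3 left out, 9, 7 and 9 genes of the list fell.

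Of 25 phosphate-responsive genes 7 rose (28%, against 10.7% of all features) and 2 fell (8%, against 15.9%), and the median was 0.07. After *PHO84*, the sodium-coupled phosphate carrier *PHO89* had 2.71, 2.17 and 1.89 (mean 2.25, adjusted p = 0.00058), *SPL2*, an inhibitor of low-affinity phosphate uptake, had 2.57, 1.71 and 1.77 (mean 2.02, adjusted p = 0.000500) and *PHM7* a mean of 1.78 (adjusted p = 0.00179). *PHO3*, the constitutive acid phosphatase, had -2.93, -2.26 and -1.75 (mean -2.31, adjusted p = 0.000191), and its neighbour *PHO5*, the phosphate-repressed form of similar sequence, had -0.88, -1.41 and -0.22 (adjusted p = 0.0429, lost without experiment 1 or 2). When experiment 1, 2 or 3 was omitted, 4, 5 and 6 rose and 1, 1 and 2 fell. Of 12 genes of NAD synthesis 1 rose and 1 fell (8.33% each), below the 10.7% and 15.9% of all features. *BNA2*, which opens the tryptophan ring, rose (2.03, 1.66 and 1.14, mean 1.61, adjusted p = 0.000837) and *NMA1* fell (mean -0.73, adjusted p = 0.0369, lost whichever experiment was left out).

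At the plasma membrane, the proton pump *PMA1* had -1.78, -1.37 and -1.48 (mean -1.54, adjusted p = 0.000712) and its minor isoform *PMA2*, which shares much of its sequence, a mean of -1.27 (adjusted p = 0.00331). *HSP30*, which lowers the activity of the pump, stood at 2.64, 3.69 and 1.72. Metal handling had 6 of 31 genes down (19.4%, against 15.9% of all features) and 5 up (16.1%, against 10.7%). Among those that fell were the ferroxidase of high-affinity iron uptake *FET3* at -2.37, -2.34 and -1.35 (mean -2.02, adjusted p = 0.000306), the reductase *FRE1* at -1.33, -2.86 and -1.82 (adjusted p = 0.00149) and the siderophore carrier *SIT1* at a mean of -1.90 (adjusted p = 0.00211). Another reductase, *FRE2*, rose (0.99, 0.64 and 0.74, mean 0.79, adjusted p = 0.0160). The metallothioneins *CRS5* and *CUP1-2* rose with means of 1.17 and 1.03 (adjusted p = 0.0327 and 0.0288), but lost their calls whichever experiment was left out, as did *FRE2* and the other 2 that rose, so that 0 genes rose in those fits and 5, 4 and 6 fell without experiment 1, 2 or 3.

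Protein synthesis held the largest and most uniform fall. Of 72 large-subunit genes 68 fell and of 52 small-subunit genes, with *ASC1* counted among them, 47 fell, 115 of 124 in all, and these genes made up 73 of the 130 features that fell over 4-fold (56.2%). The list medians were -2.62, -2.09 and -1.57 for the large and -2.76, -2.30 and -1.48 for the small subunit in experiments 1, 2 and 3. Of the 124 genes, 101 had their largest change in experiment 1 and 105 their smallest in experiment 3. In fits without experiment 1, 2 or 3, 54, 54 and 65 large-subunit and 43, 42 and 47 small-subunit genes fell. The 9 that did not pass were *RPL16A*, *RPL30*, *RPL39*, *RPL41A*, *RPS11B*, *RPS29A*, *RPS29B*, *RPS30B* and *RPS9A*, named for completeness, with means between -1.33 (*RPL16A*) and 0.18 (*RPS29A*). Most of these proteins are encoded by 2 nearly identical genes, and the values of such copies are not independent.

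Of 92 biogenesis genes 47 fell, none rose (1 at an unadjusted p under 0.05), and 76 lay below 0 in all 3 experiments, with a median of -0.75. Here experiment 2 had the lowest median (-0.63, -1.02 and -0.67 in experiments 1, 2 and 3), whereas in the ribosomal proteins themselves it was experiment 1. *DBP2*, an RNA helicase, had -2.36, -2.59 and -2.72 (mean -2.56, adjusted p = 0.000208), *NOP1*, the methylase of box C/D particles, a mean of -2.15 (adjusted p = 0.000123), and *NOP7* and *CBF5*, of the large subunit's precursor and of the pseudouridine particles, -2.12 and -2.10 (adjusted p = 0.000109 and 0.000197). Of 26 genes of RNA polymerases I and III 7 fell (26.9%, against 15.9% of all features), with the largest subunits of polymerase I, *RPA135* and *RPA190*, at -1.93 and -1.77 (adjusted p = 0.00155 and 0.000265). Of 6 genes of polymerase II 1 fell (16.7%), near the share of all features. After experiment 1, 2 or 3 was dropped, 30, 21 and 34 biogenesis genes and 4, 2 and 5 of the polymerase I and III genes fell.

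Translation factors and aminoacyl-tRNA synthetases fell nearly throughout, 31 of 36 and 19 of 21, with medians of -1.18 and -1.57. *TEF4*, a subunit of elongation factor 1B, had -3.24, -2.52 and -2.09 (mean -2.62, adjusted p = 0.00030), *EFT2*, elongation factor 2, a mean of -2.26 (adjusted p = 0.00131), and *TIF1* and *TIF3*, the initiation factors 4A and 4B, both -2.18 (adjusted p = 0.000265 for each). Among the synthetases *HTS1*, for histidine, had nearly equal ratios (-1.32, -1.37 and -1.34), while *DED81*, for asparagine, had -3.22, -2.31 and -1.60 (mean -2.38, adjusted p = 0.00037). *CDC60*, for leucine, and *SES1*, for serine, had means of -2.11 and -2.09 (adjusted p = 0.000587 and 0.000549). Without experiment 1, 2 or 3, 17, 19 and 27 factors and 16, 17 and 17 synthetases fell. Ribosomal proteins of mitochondria, by comparison, had 1 of 69 up (*IMG2*, mean 0.84, adjusted p = 0.0378) and 1 down (*MRPS12*, mean -0.83, adjusted p = 0.0112), both lost whichever experiment was left out, and a median of -0.03.

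Of 39 glycosylation genes 19 fell and none rose (0 at an unadjusted p under 0.05), and 31 were below 0 in all 3 experiments. *SEC53*, which makes the mannose precursor, had -1.85, -1.88 and -1.66 (mean -1.79, adjusted p = 0.000584), *PMT4* and *PMT1*, which start O-linked chains, means of -1.63 and -1.32 (adjusted p = 0.000587 and 0.00161), and *OST1*, of the N-linked transferase, -1.50 (adjusted p = 0.000584). Of 28 genes of vesicle coats and the translocon 12 fell, with *COP1*, of the retrograde coat, at -1.62, -1.71 and -0.62 (adjusted p = 0.00355, and 0.0558 without experiment 2). These counts were 5, 5 and 12 for glycosylation and 3, 1 and 5 for coats and translocon without experiment 1, 2 or 3. *KAR2*, the Hsp70 of the endoplasmic reticulum, rose, as given above.

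**Figure D4:**
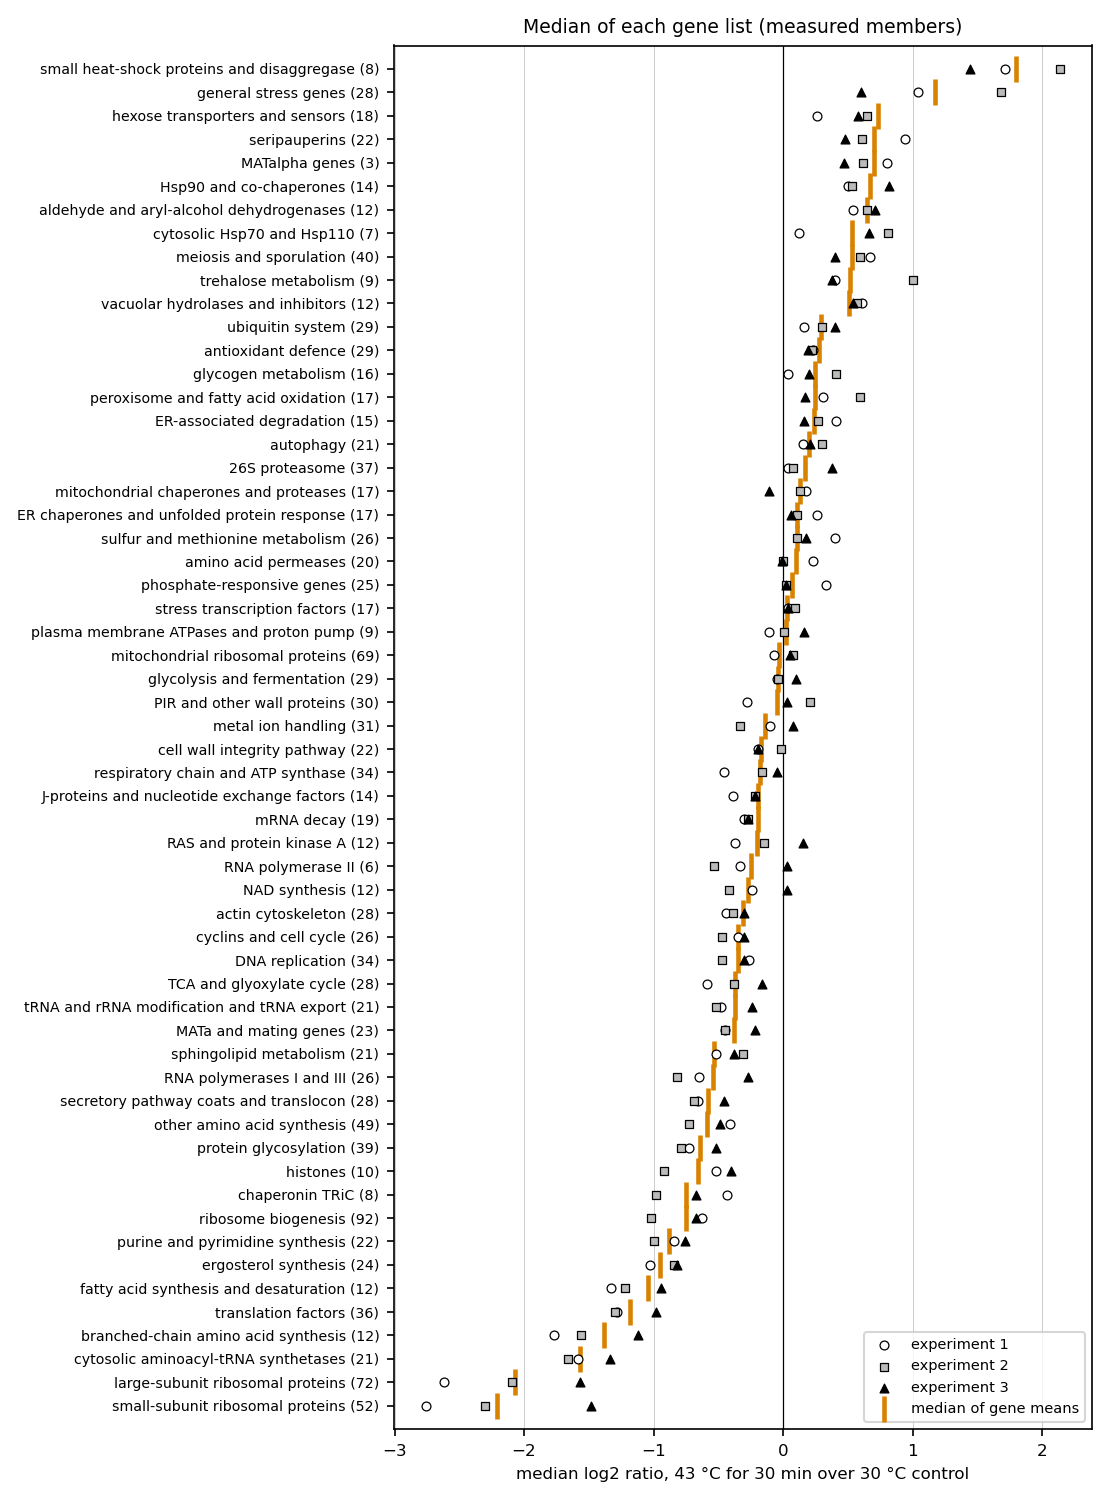
Median log2 ratio of heat-shocked over control cells after 30 min at 43°C (horizontal axis) over the measured members of each of the 58 gene lists, with a symbol for each of the 3 experiments, a bar at the median of the gene means and the number of measured members in brackets, ordered by that median. The lists of both ribosomal subunits lie lowest at -2.21 and -2.07 and the mixed list of small heat-shock proteins and the disaggregase highest at 1.80.

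Cell wall proteins split, 10 of 30 up and 8 down. *PIR3*, *PST1* (2.23, 2.56 and 2.09, mean 2.29, adjusted p = 7.54e-05), a surface protein secreted by regenerating protoplasts, and *TIP1*, a mannoprotein of cold and heat shock (1.54, 1.98 and 1.52, mean 1.68, adjusted p = 0.000359), rose. The glucanase *SCW10* had -3.19, -2.23 and -2.50 (mean -2.64, adjusted p = 9.59e-05), *CIS3*, a protein of the PIR family like *PIR3*, -2.47, -2.16 and -1.40 (mean -2.01, adjusted p = 0.000609) and *UTR2*, which links chitin to glucan, a mean of -2.01 (adjusted p = 0.00014). *GAS1*, which extends the glucan of growing walls, had a mean of -1.66 (adjusted p = 0.000576). With experiment 1, 2 or 3 left out, 4, 4 and 6 members of the list rose and 5, 5 and 6 fell. The PIR family thus held both a member that rose over 4-fold and a member that fell over 4-fold. In the cell wall integrity pathway, 2 of 22 rose (9.09%) and 3 fell (13.6%), near the shares of all features. These counts were 2, 1 and 2 and 1, 1 and 2 without experiment 1, 2 or 3. *RLM1*, the transcription factor of the pathway, had 1.13, 1.17 and 1.18 (mean 1.16, adjusted p = 0.00425). The sensor *WSC2* had -1.50, -1.41 and -1.40 (mean -1.44, adjusted p = 0.000815). Another sensor, *MTL1*, rose with 0.81, 2.14 and 0.91 (mean 1.29, adjusted p = 0.0130, and 0.152 without experiment 2).

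Of 23 genes of mating in MATa cells 7 fell (30.4%, against 15.9% of all features) and 2 rose (8.7%, against 10.7%). Without experiment 1, 2 or 3, 4, 4 and 5 fell and 0 each time rose. Beside *STE2*, *STE6*, the exporter of a-factor, had -3.36, -2.49 and -2.22 (mean -2.69, adjusted p = 8.78e-05), and the subunits of the pheromone G protein, *GPA1* (alpha) and *STE4* (beta), had means of -1.98 and -1.31 (adjusted p = 0.000177 and 0.00162). The other defining genes of this mating type that were measured were *AGA2* (mean -1.35, adjusted p = 0.0180, and 0.167 and 0.125 without experiment 1 and 2), *MFA1* (mean -0.46, adjusted p = 0.361) and *MFA2* (mean -0.65, adjusted p = 0.261). *BAR1* was not measured. Of 26 cell cycle genes 9 fell and none rose (1 at an unadjusted p under 0.05). *CTS1*, the chitinase of cell separation, had -2.83, -1.40 and -1.68 (mean -1.97, adjusted p = 0.00138), the G1 cyclin *CLN2* -1.60, -1.91 and -1.94 (adjusted p = 0.00654, and 0.0548 without experiment 2), the mitotic cyclin *CLB2* -1.81, -2.05 and -1.50 (adjusted p = 0.0196, and 0.0984, 0.123 and 0.0539 without experiment 1, 2 and 3), and *SWI5*, a factor of late mitosis, -2.38, -2.18 and -0.76 (adjusted p = 0.00206). The SD of *CLB2* was 0.28 at 30 min and 1.74 at 60 min, and its adjusted p was 7.19e-05 with 30 min fitted alone by limma. When experiment 1, 2 or 3 was omitted, 4, 3 and 7 of the cell cycle genes fell. Genes of different phases were thus among those that fell, and no measure of the phase of the cells was used here.

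In DNA replication 7 of 34 fell (20.6%), near the 15.9% of all features. The lowest was *RNR1*, the large subunit of ribonucleotide reductase (-3.13, -2.69 and -1.74, mean -2.52, adjusted p = 0.000177). Among 10 histone genes 4 fell (40%), led by *HTA1* (mean -1.37, adjusted p = 0.00146). Of 28 actin cytoskeleton genes 9 fell and none rose (1 at an unadjusted p under 0.05). *ACT1*, actin itself, had -0.74, -0.56 and -1.15 (mean -0.82, adjusted p = 0.0377), a call lost whichever experiment was left out (adjusted p = 0.146, 0.115 and 0.189). In fits without experiment 1, 2 or 3, 2, 2 and 5 replication genes, 1, 1 and 4 histone genes and 2, 0 and 4 actin genes fell. In mRNA decay 4 of 19 fell (21.1%), near the share of all features, and 1, 2 and 2 fell without experiment 1, 2 or 3. *PUB1*, a poly(U)-binding protein, had a mean of -1.50 (adjusted p = 0.00151) and the exonuclease *XRN1* -1.27 (adjusted p = 0.00628, and 0.0727 and 0.0664 without experiment 1 and 2).

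Of 22 seripauperins, a subtelomeric family of near-identical wall proteins, 9 rose and 21 lay above 0 in all 3 experiments, with a median of 0.70 and a highest mean of 1.05 (*PAU24*, adjusted p = 0.0111, and 0.0983, 0.0548 and 0.0573 without experiment 1, 2 and 3). Of 40 genes of meiosis and sporulation 13 rose and 2 fell, and 28 lay above 0 in all 3 experiments, with *SPO1*, a phospholipase-like protein of meiosis, the highest (1.20, 1.28 and 1.13, mean 1.20, adjusted p = 0.00206). Over all features 10.7% rose and 2045 of 6019 lay above 0 in all 3 experiments. Medians in experiments 1, 2 and 3 were 0.94, 0.61 and 0.48 for seripauperins and 0.67, 0.59 and 0.40 for meiosis. They were 0.80, 0.62 and 0.47 for the other mating type, given below. Spot intensities were not used, so whether these genes lay near the detection floor was not tested. The regulators *IME1* and *NDT80*, which start meiosis and carry it through, had means of 0.07 and -0.22 (adjusted p = 0.864 and 0.446), and *IME2*, *HOP1* and *DIT1* had 0.20, 0.39 and 0.43 (adjusted p = 0.667, 0.201 and 0.237). After experiment 1, 2 or 3 was dropped, 2, 2 and 6 meiotic genes and 0, 0 and 1 seripauperins rose. Of the genes of the other mating type, which a MATa cell does not use, 3 were measured and 0 passed (2 rose at an unadjusted p under 0.05): *STE3* had 1.55, 0.86 and 0.47 (mean 0.96, adjusted p = 0.0617), *MF(ALPHA)2* 0.80, 0.62 and 0.67 (mean 0.70, adjusted p = 0.0818) and *SAG1* -0.05, -0.11 and 0.36 (mean 0.07, adjusted p = 0.841). Among the 643 features without a gene name 115 rose (17.9%) and 39 fell (6.07%), against 9.90% and 17.1% of the 5376 named genes.

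Between 60 and 30 min at 43°C, 0 of 6019 features differed by limma (0%, smallest adjusted p = 0.449, 516 at an unadjusted p under 0.05), with a median SD over the experiments of a time of 0.45 at 60 min and 0.27 at 30 min. The value of a gene at 30 min can therefore not be set apart from that at 60 min by this test, which does not show that they are alike. *ALD3*, for example, had a mean of 2.91 ± 0.76 at 30 min and 0.91 ± 0.83 at 60 min (SD, n = 3 each), *SSA4* 4.34 ± 0.87 and 2.83 ± 0.75, and *STE2* -3.14 ± 0.77 and -4.30 ± 0.32.

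**Figure D5:**
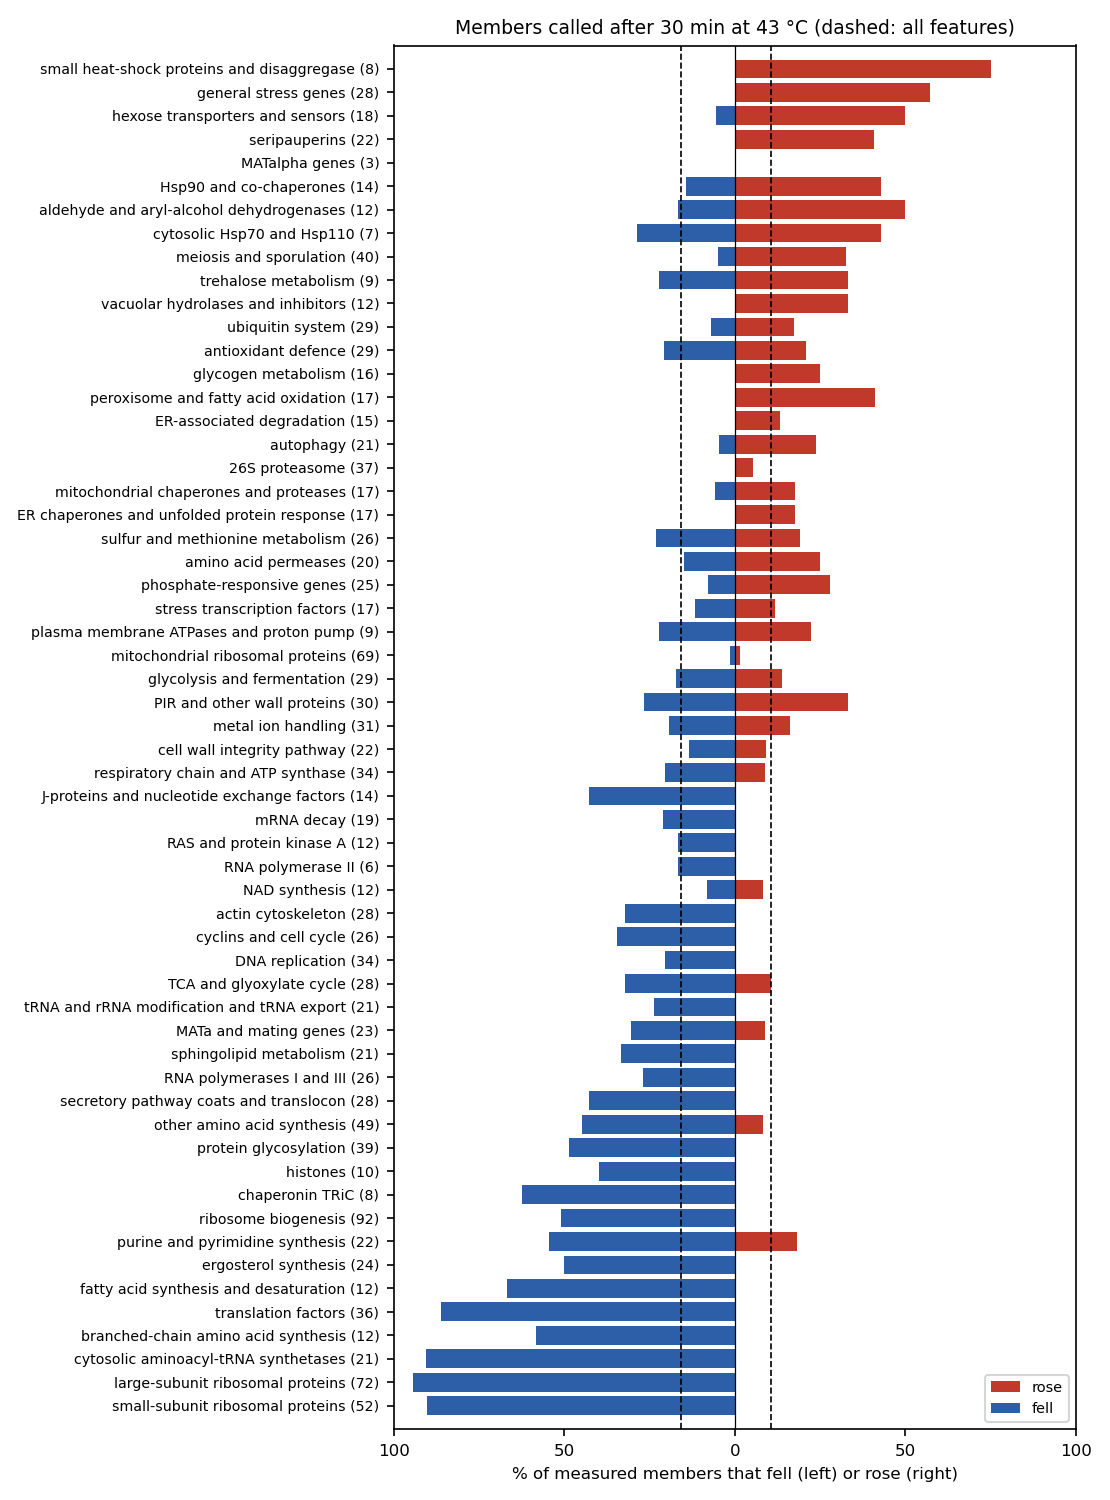
Percentage of the measured members of each of the 58 gene lists that rose (red, to the right) and fell (blue, to the left) after 30 min at 43°C, in the same order as the list medians, with dashed lines at 10.7% and 15.9%, the percentages over all features. The bars reach 94.4% of large-subunit ribosomal proteins and 90.5% of aminoacyl-tRNA synthetases that fell. They reach 75.0% that rose in the mixed list of small heat-shock proteins and the disaggregase.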

How the data were processed

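Poly(A) RNA of heat-shocked and control cells was hybridized to 2-colour cDNA arrays, 3 at 30 min and 3 at 60 min. The authors quantified the spots with GenePix and computed Cy5/Cy3 with Chip Cleanser, normalizing on negative control spots. The deposited values are log ratios, taken here as log2 although the base is not given in the sources used here. The limma calls are the same in any base. The 2-fold rule, every fold value or ratio given and the counts over 4-fold and 8-fold depend on that choice. High and low power scans of an array gave identical columns (0 values differ) and counted as 1 array, and 0 columns were left unused. Intensities and background were not used here, so precision rests on the number of arrays.

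Of 6912 probes 6162 had a value. Of these, 5446 carry 1 gene symbol, 0 several and 716 none, and all 5446 matched a RefSeq gene. Probes with identical values throughout (203 probes, 78 groups, including 49 for *ACT1*) were merged, distinct probes of 18 genes were averaged, and 3 features with 2 gene names entered no list. Of the resulting 6019 features 5989 had all 6 values. Fits with a missing value rest on the other arrays.

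The mean at 30 min against 0, and 60 min minus 30 min, were tested with limma 3.58.1 in R 4.3.3, with both times sharing 1 spread (4 residual and 6.765 prior degrees of freedom) and Benjamini-Hochberg adjustment over all features at 0.05. The fit was tested on simulated data. Each SD in the text is over the 3 experiments of 1 time, not the spread behind the p-value. Experiment numbers were not used as pairs: deviations from the time means correlated with -0.0420, 0.127 and 0.356 for numbers 1, 2 and 3.

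The 58 lists come from textbook knowledge and were described by counts and medians alone. Members, lists and the rule for names were chosen with earlier results of these data known, and 3 list names with an outdated or shared symbol were resolved by hand after values were seen. The rule names the 12 highest and 12 lowest means among genes that passed with 1 sign in all 3 experiments, up to 4 called members of a list in each direction, the 6 called genes with the widest range, every measured gene of the other mating type and genes the paper names for the heat-shocked wild-type. Every other gene named was chosen after its values were seen. Alternatives tried were centring each array on its median, scaling as well, print-block centring, 30 min fitted alone, a replicate block, array weights, robust empirical Bayes, other filters and fold rules, each scan alone and each array left out.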

Additional observations from a re-analysis of the deposited data

Results flagged for a closer look

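*HSP60*, the chaperonin of the mitochondrial matrix, lay on opposite sides of 0 at the 2 times in every experiment. Its log2 ratios were 0.36, 1.60 and 1.52 at 30 min (mean 1.16) and -0.28, -0.21 and -0.67 at 60 min (mean -0.39). The difference by limma had an adjusted p of 0.449, so it did not pass, and of all features with 6 values 144 had such opposite signs. It was the only named gene of the text that did.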

How the results depend on the processing

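With each array centred on its median, robust empirical Bayes, features with 6 values, either scan alone or identical probes kept apart, the numbers of genes that rose, fell or were over 2-fold up or down stayed within 1.5 times the values given. More genes rose (1025) after scaling to a common median absolute deviation, and more rose and fell with 30 min fitted alone (1278 and 1443) and with array weights (1612 and 1738). Fewer passed with a mean log2 ratio beyond 1 or -1 asked as well (232 and 565), and without experiment 3 of both times, an alternative added after the data were seen (220 and 552). Leaving out an array of either time gave 132 to 1013 genes that rose, 417 to 1244 that fell, 136 to 266 over 2-fold up, 383 to 613 over 2-fold down and 0 to 2 that differed between 60 and 30 min. The 2-fold rule asked of all 3 experiments gave 109 up and 346 down, natural logarithms 844 and 1022 and log10 1971 and 1979.

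With the experiment number as a replicate block, 796 rose, 1082 fell and 1 differed between 60 and 30 min, against 0 without it. Among 241 named genes checked, the block added calls of 11 and took none away. Beside left-out arrays, print-block centring took away 9 of the 204 calls of named genes that were checked: *ADE1* (adjusted p = 0.0785), *CRS5* (0.0711), *DSE2* (0.0545), *ERO1* (0.0552), *HSP78* (0.0613), *PDC5* (0.0888), *SHM2* (0.0715), *UGP1* (0.0931) and *HRD1* (0.23). Of these *UGP1* also missed the threshold with scaled arrays (0.0594), and no other such alternative took a call away.

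Means that changed sign were all of genes that had not passed. Over the arrays left out 1 at a time, *IME1* ranged between -0.30 and 0.30, *NFG1* between -0.05 and 2.85, *RPL41A* between -0.14 and 0.31, *RPN4* between -0.06 and 0.25, *SAG1* between -0.08 and 0.15 and *TIM18* between -0.12 and 1.48. Without experiment 3 of both times *IME1* had -0.30 and *SAG1* -0.08, with array weights -0.07 and -0.01, and after print-block centring *RPN4* had -0.03 and *RPS29A* -0.15. The cause was not tested in any of these. The promoter alternative was not run.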

Other observations

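Of the named genes that passed, 372 that rose and 468 that fell belong to none of the 58 lists, and those given here were chosen after their values were seen. *MCH5*, a riboflavin carrier, had 2.49, 2.10 and 2.30 in experiments 1, 2 and 3 (mean 2.30 ± 0.19, SD, n = 3, adjusted p = 7.7e-05). *FMP45*, a membrane protein of the eisosome region, had 2.16, 2.01 and 1.92 (mean 2.03, adjusted p = 0.0003), while *SUR7*, its paralog in the same membrane domains, had -1.93, -2.09 and -2.06 (mean -2.03, adjusted p = 0.000203). *PUT1*, the proline oxidase of mitochondria, had 1.53, 2.81 and 1.68 (mean 2.01, adjusted p = 0.00119), and *SSU1*, the sulfite pump, 2.61, 1.83 and 1.60 (mean 2.02, adjusted p = 0.000795). *MAG1*, a DNA glycosylase, had 1.28, 2.01 and 2.01 (mean 1.77, adjusted p = 0.000433). Among those that fell were *SIM1*, a wall protein of the SUN family (-2.96, -2.48 and -2.97, mean -2.80, adjusted p = 3.68e-05), *KAP123*, the importin of ribosomal proteins (-3.26, -2.56 and -2.34, mean -2.72, adjusted p = 7.7e-05), *SUB2*, an mRNA export helicase (mean -2.15, adjusted p = 0.000248), and *YHB1*, the flavohemoglobin that removes nitric oxide (-2.31, -1.96 and -1.72, adjusted p = 0.000173). All of these calls held whichever array of 30 min was left out.

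A feature without a gene name had ratios of 3.80, 4.06 and 3.23 (mean 3.70), the third highest mean of all features. A few genes rested on 1 array. *NFG1* had 5.74 in experiment 1 and -0.05 in experiments 2 and 3, the highest single ratio of the 3 arrays (adjusted p = 0.126), and *TIM18* had 2.99, -0.02 and -0.21. Of the called genes with the widest range, *YKL107W* had 3.88, 0.88 and 0.76 (adjusted p = 0.0186, and 0.100 without experiment 1), *DSE2* -3.35, -0.70 and -0.58 (adjusted p = 0.0306, and 0.253 and 0.0520 without experiment 1 and 2) and *SVS1* -2.74, -3.15 and -0.94 (adjusted p = 0.00144).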
